A study of Mus musculus with 14 samples.

Results

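The genes described here are 10 transcriptional targets and feedback inhibitors of fibroblast growth factor (FGF) signalling, namely the sprouty genes Spry1, Spry2 and Spry4, the sprouty-related genes Spred1 and Spred2, the phosphatase gene Dusp6, the receptor antagonist gene Il17rd and the ETS factor genes Etv1, Etv4 and Etv5. They were taken by name from a count table of 24454 genes, and all 10 were among the 15125 genes with enough reads to be tested. The table holds 14 RNA-seq libraries of 5 mesenchymal cell populations sorted by flow cytometry from mouse forelimb buds. All embryos carried a Sox9 allele with an EGFP reporter (Sox9-IRES-EGFP) on a mixed Swiss Albino background, and each library pooled the buds of many embryos. Cells carrying surface markers of blood, endothelium or epithelium had been gated out. Of the 5 populations, 3 lacked the Sox9 reporter (S9-), namely JAG1+ limb bud mesenchymal progenitors (S9-JAG1+ LMPs, 3 libraries), LMPs with high PDGFRα (S9-Pαhi LMPs, 3 libraries) and SCA-1+ cells (S9-SCA-1+ cells, 2 libraries). The others carried both the reporter and high PDGFRα. They were osteo-chondrogenic progenitors (S9+Pαhi OCPs, 3 libraries) and S9+PαhiCol2a1+ chondroblasts (3 libraries). Chondroblasts came from embryonic day E11.5 and the other populations from E10.5, so in every comparison with chondroblasts the population and the stage cannot be told apart. No gate used Col2a1 itself, and the chondroblasts passed the same reporter and PDGFRα gate as the OCPs.

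In the limb bud, FGFs made by the apical ectodermal ridge and by the mesenchyme bind receptor tyrosine kinases on mesenchymal cells and act largely through RAS and the kinase ERK. ERK activity switches on genes whose products dampen the same pathway. Sprouty and Spred proteins act on the steps around RAS and RAF, DUSP6 removes the activating phosphates from ERK in the cytoplasm, and IL17RD (also called Sef) acts at the membrane and on ERK itself. ETV1, ETV4 and ETV5, the PEA3 group of ETS transcription factors, are activated by the same route, and Etv4 and Etv5 are known in the limb bud as FGF targets that restrain Shh in the anterior mesenchyme. Transcript levels of these genes are widely used as a readout of FGF activity. In what follows they are levels of RNA, and nothing more of the pathway was measured in these libraries. The study separately reported that FGF8b raised Spry4 and Dusp6 in cultured forelimb bud cells.

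Library totals ran from 20316583 to 29162751 counts, with a median of 25554497. Levels are given as CPM, reads of a gene relative to the scaled library total, and per kilobase of the deposited gene length (RPKM) where genes are compared with each other. Counts of replicate libraries differed by more than counting noise in every pair, so each library counted as 1 replicate. The gates on JAG1, the Sox9 reporter and SCA-1 showed in the RNA. Jag1 lay at 227.9 to 363.7 CPM in S9-JAG1+ LMPs, at 102.1 to 137.1 CPM in chondroblasts and at 21.3 CPM or less in the other populations. Sox9 was at 411.4 to 624.8 CPM in both S9+ populations and at 65.5 CPM or less elsewhere. Pdgfra averaged 864.0 CPM in chondroblasts, 718.5 CPM in OCPs, 442.5 CPM in S9-Pαhi LMPs and 246.7 CPM in S9-JAG1+ LMPs. In S9-SCA-1+ cells Pdgfra averaged only 34.4 CPM, although the study sorted these from PDGFRα-positive cells. Ly6a, which encodes SCA-1, reached 3.36 CPM in S9-SCA-1+ cells, where other populations stayed at or under 0.406 CPM, and 8 of 8 muscle precursor markers were higher in these cells, with a sum of 1867 to 1915 CPM against 127.1 CPM or less. Red blood cell genes summed to 4023 CPM in replicate 3 and to 141.4 CPM in replicate 2 of the S9-SCA-1+ cells, against at most 96.1 CPM elsewhere. In bulk libraries, fewer cells of a type and less RNA per cell cannot be told apart.

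RefSeq promoters of 8 of the 10 genes, all but Spry4 and Etv4, were searched (10 starts, mouse build GRCm38.p6). The 250 bases before the start are shown for 3 of them. Spry1 and Dusp6 had the most alike profiles of all members over the libraries, and Spry2 had a pattern of its own among the sprouty genes. The promoter of Spry1 lies at chr3:37639697-37639946 on the plus strand, that of Dusp6 at chr10:99262981-99263230 on the plus strand and that of Spry2 at chr14:105896820-105897069 on the minus strand. Each reads 5′ to 3′ in the direction of its gene, with the 4-letter core of ETS factor sites, GGAA on either strand, in capitals.
Spry1 promoter: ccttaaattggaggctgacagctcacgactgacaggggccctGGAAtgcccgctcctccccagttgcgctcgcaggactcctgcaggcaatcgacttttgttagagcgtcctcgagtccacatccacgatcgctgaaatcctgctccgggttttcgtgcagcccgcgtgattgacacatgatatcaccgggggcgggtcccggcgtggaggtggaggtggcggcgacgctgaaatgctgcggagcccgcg
Dusp6 promoter: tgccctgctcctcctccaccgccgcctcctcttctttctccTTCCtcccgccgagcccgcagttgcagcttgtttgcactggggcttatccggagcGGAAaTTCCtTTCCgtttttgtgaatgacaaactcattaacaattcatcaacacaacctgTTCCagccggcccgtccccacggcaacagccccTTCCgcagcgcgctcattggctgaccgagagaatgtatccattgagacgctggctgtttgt
Spry2 promoter: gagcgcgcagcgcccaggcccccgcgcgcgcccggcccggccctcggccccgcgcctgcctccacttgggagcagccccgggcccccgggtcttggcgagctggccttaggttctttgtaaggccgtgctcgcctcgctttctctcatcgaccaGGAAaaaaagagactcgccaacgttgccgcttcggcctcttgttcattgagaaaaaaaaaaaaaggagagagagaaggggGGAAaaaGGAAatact
The core occurred once in Spry1, 6 times in Dusp6 and 3 times in Spry2. It was found in 9 of the 10 windows of these 8 genes and in 93.4% of all 32851 mouse promoters of this length. Its presence thus says nothing particular about these genes. Longer motifs were searched on both strands, namely a Capicua octamer (TGAATGAA, in 1.08% of all promoters), an ETS site (CCGGAAG, which holds the core, in 6.91%), an AP-1 site (TGANTCA, in 6.75%) and a cyclic AMP response element (TGACGTCA, in 1.55%). None of these strings occurred in the 10 windows, which says only that these letters are not there.

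Each population was first compared with the mean of the other 4, with a gene called where the adjusted p was at most 0.1 and the log2 fold change at least 1.2 in size (2.3-fold). The p-values come from the quasi-likelihood test of edgeR, adjusted after Benjamini and Hochberg over all genes tested, and they measure the spread between the sorted libraries. These comparisons share libraries and are not independent of one another. In S9-JAG1+ LMPs 5 of the 10 members rose (Spry1, Spry4, Dusp6, Etv4 and Il17rd) and none fell, where 2.88% of all genes were called higher and 7.7% lower. The members' median log2 fold change was 1.18 against -0.01 over all genes tested. On the adjusted p alone all 10 members passed, 9 higher and Etv1 lower, as did 49.9% of all genes in either direction. No member was called in S9-Pαhi LMPs (1.53% of all genes higher, 2.31% lower), where the median was 0.26 and 6 members passed on the adjusted p alone, beside 15.6% of all genes. In OCPs Spry4 and Etv4 fell (3.37% of all genes higher, 1.64% lower), the median was -0.35, and 5 members passed on the adjusted p alone, beside 28.5% of all genes. In chondroblasts Etv4 fell (11% higher, 1.71% lower), with a median of -0.30, and in S9-SCA-1+ cells Spry1, Spry4 and Dusp6 fell (4.46% higher, 6.8% lower), with a median of -0.49. On the adjusted p alone 8 members passed in chondroblasts (65% of all genes) and 8 in S9-SCA-1+ cells (46.4%). Across the 5 populations jointly, 7 members passed both limits (Spry1, Spry2, Spry4, Dusp6, Etv4, Etv5 and Il17rd), beside 29.2% of all genes. All 10 passed on the adjusted p alone, where 74.8% of all genes did. Spry1, Spry2, Spry4 and Dusp6 were among the FGF targets the study itself singled out in these libraries, so their direction is not independent evidence.

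**Figure D1:**
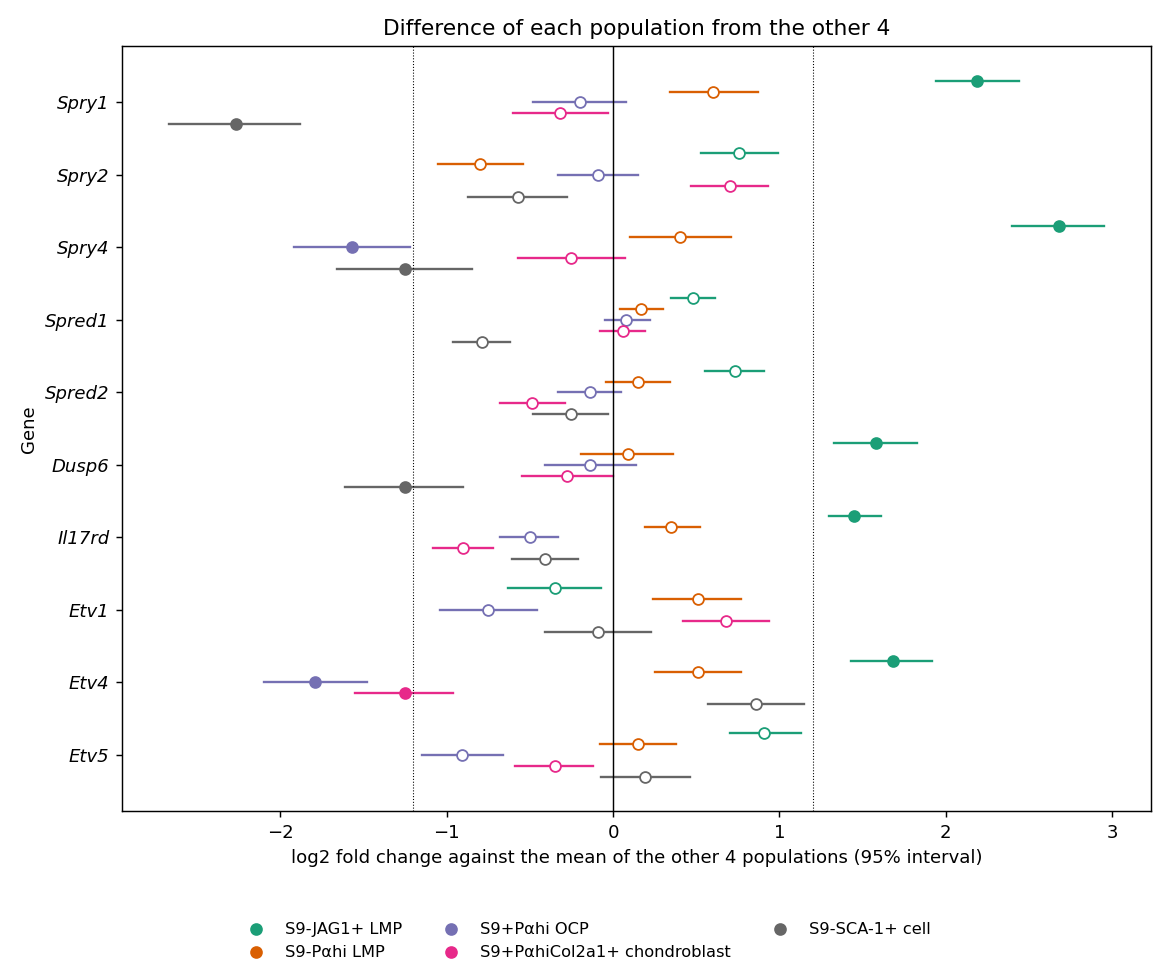
Log2 fold change of each member in each population against the mean of the other 4 populations (x axis), with its 95% interval; filled points were called (adjusted p of at most 0.1 and beyond the dotted lines at 1.2 and -1.2). S9-JAG1+ LMPs lie to the right for 9 of the 10 genes, and the S9-SCA-1+ cells lie farthest left for Spry1, Spred1 and Dusp6.

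Sprouty genes encode intracellular inhibitors of receptor tyrosine kinase signalling. Spry1 (chr3:37639947-37644599) was at 132.7, 126.1 and 148.9 CPM in the 3 libraries of S9-JAG1+ LMPs, at 54.6, 42.4 and 72.1 CPM in S9-Pαhi LMPs, at 29.8, 38.9 and 39.5 CPM in OCPs, at 35.8, 34.8 and 30.9 CPM in chondroblasts and at 11.1 and 11.8 CPM in S9-SCA-1+ cells. All S9-JAG1+ libraries lay above all others, the OCP and chondroblast libraries overlapped, and both SCA-1+ libraries lay below all others. The means spanned 11.9-fold, the widest span of the 10 genes. Against the other 4 populations the gene was 4.57-fold higher in S9-JAG1+ LMPs (log2 2.19 ± 0.11 SE, adjusted p = 3.81e-09) and 4.84-fold lower in S9-SCA-1+ cells (log2 -2.27 ± 0.18, adjusted p = 2.90e-07). Of its exon bases, 24.4% overlap a gene model on the opposite strand (Gm42922), and since it is not stated whether the counting used strand, reads of both cannot be told apart there.

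Spry4 was the most uneven sprouty gene between the Sox9-negative progenitors and the OCPs. Its libraries stood at 164.5, 145.0 and 164.8 CPM in S9-JAG1+ LMPs, 36.5, 36.1 and 62.1 CPM in S9-Pαhi LMPs, 15.6, 14.6 and 14.8 CPM in OCPs, 36.0, 32.9 and 24.6 CPM in chondroblasts, and 18.4 and 17.3 CPM in S9-SCA-1+ cells. The lowest S9-JAG1+ library thus lay above the highest library of any other population, and the OCPs and SCA-1+ cells formed the bottom of the order, where they did not differ beyond their spread (log2 0.25 ± 0.21, adjusted p = 0.364). It was 6.39-fold higher in S9-JAG1+ LMPs than in the other 4 populations (log2 2.68 ± 0.13, adjusted p = 1.47e-09), the steepest rise among the members. In OCPs it was 2.97-fold lower than in the other 4 (log2 -1.57 ± 0.16, adjusted p = 1.10e-05). In S9-SCA-1+ cells it was 2.39-fold lower (log2 -1.25 ± 0.19, adjusted p = 1.27e-04), a call that was lost without replicate 3 of the S9-Pαhi LMPs (log2 -1.18).

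Spry2 (chr14:105891947-105896819) did not share this order. Its level was 91.3, 108.6 and 113.1 CPM in S9-JAG1+ LMPs and 110.9, 105.4 and 86.4 CPM in chondroblasts, 55.2, 74.2 and 66.2 CPM in OCPs, 48.8 and 50.9 CPM in S9-SCA-1+ cells, and 49.6, 35.8 and 46.6 CPM in S9-Pαhi LMPs. S9-JAG1+ LMPs and chondroblasts overlapped at the top, with a log2 difference of 0.05 (95% interval -0.25 to 0.35, adjusted p = 0.784), and S9-Pαhi LMPs and SCA-1+ cells overlapped at the bottom (adjusted p = 0.457). The gene was therefore called in no comparison with the mean of the others (log2 0.76 ± 0.11 in S9-JAG1+ LMPs, 0.70 ± 0.11 in chondroblasts and -0.80 ± 0.12 in S9-Pαhi LMPs). Between both LMP populations it was called, at 2.37-fold higher in S9-JAG1+ LMPs (log2 1.25 ± 0.14, adjusted p = 2.22e-05).

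**Figure D2:**
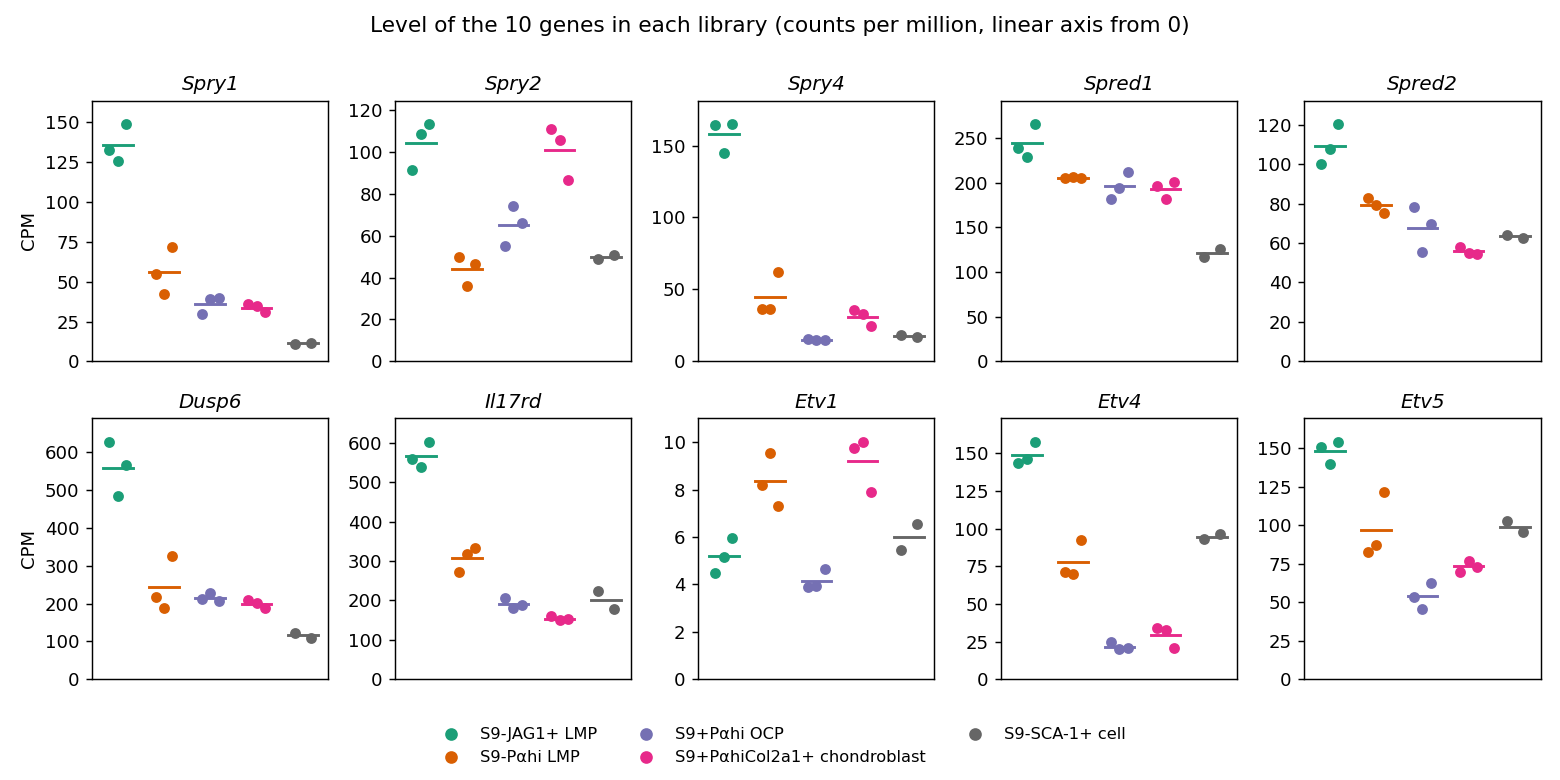
Level of each of the 10 genes in each of the 14 libraries, in CPM on a linear axis from 0; points are libraries and lines are means. S9-JAG1+ LMPs hold the highest mean for 9 genes and chondroblasts for Etv1, and replicate 3 of the S9-Pαhi LMPs is the highest of its group for Spry1, Spry4, Dusp6, Il17rd, Etv4 and Etv5.

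Spred proteins share a domain with the sprouty proteins and bind RAF and the RAS regulator neurofibromin. Both genes were nearly even. Spred1 (chr2:117121071-117182279) ranged from 229.0 to 265.5 CPM in S9-JAG1+ LMPs and from 181.6 to 212.5 CPM over the libraries of S9-Pαhi LMPs, OCPs and chondroblasts, whose neighbours in order did not differ beyond their spread (adjusted p = 0.588 and 0.867), and lay at 116.9 and 125.4 CPM in S9-SCA-1+ cells. The drop in the SCA-1+ cells was its main contrast (1.73-fold below the other 4, log2 -0.79 ± 0.08, adjusted p = 2.64e-06), short of the fold limit. Spred2 (chr11:19924442-20024026) was at 100.1 to 120.2 CPM in S9-JAG1+ LMPs, above all other libraries, which spread from 54.2 to 83.0 CPM (log2 0.73 ± 0.08, adjusted p = 1.08e-05). Spred1 and Spred2 had the narrowest spans of the 10 genes, 2.02-fold and 1.96-fold between the highest and the lowest population.

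Dusp6 and Il17rd had the highest average counts of the members. Dusp6 (chr10:99263231-99267489), the ERK phosphatase, was at 627.0, 483.3 and 565.4 CPM in S9-JAG1+ LMPs. In S9-Pαhi LMPs it was at 218.0, 187.4 and 326.9 CPM, in OCPs at 212.4, 228.6 and 206.3 CPM, in chondroblasts at 210.2, 201.6 and 187.1 CPM, and in S9-SCA-1+ cells at 123.0 and 109.0 CPM. S9-Pαhi LMPs, OCPs and chondroblasts thus shared a middle level at which neighbours did not differ beyond their spread (adjusted p = 0.485 and 0.640), with S9-JAG1+ LMPs above and SCA-1+ cells below. S9-JAG1+ LMPs stood 2.99-fold over the other 4 (log2 1.58 ± 0.12, adjusted p = 1.43e-07), and S9-SCA-1+ cells 2.39-fold under them (log2 -1.25 ± 0.17, adjusted p = 3.76e-05). The latter call was lost without replicate 3 of the S9-Pαhi LMPs (log2 -1.19) and without replicate 3 of the S9-SCA-1+ cells (log2 -1.17). Per kilobase Dusp6 was the most abundant member in each population, from 199.7 ± 25.8 RPKM (SD, n = 3) in S9-JAG1+ LMPs to 41.5 ± 3.53 RPKM (n = 2) in S9-SCA-1+ cells, where Etv4 was within its spread at 40.6 ± 1.01 RPKM.

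Il17rd (chr14:27038964-27107286), the membrane antagonist, had libraries at 558.9, 539.5 and 601.4 CPM in S9-JAG1+ LMPs, 271.8, 318.3 and 333.3 CPM in S9-Pαhi LMPs, 224.6 and 179.0 CPM in S9-SCA-1+ cells, 205.5, 180.9 and 188.2 CPM in OCPs and 159.8, 149.0 and 152.8 CPM in chondroblasts. Each step down in this order passed an adjusted p of 0.1 except that from SCA-1+ cells to OCPs (adjusted p = 0.617). It rose 2.74-fold in S9-JAG1+ LMPs against the other 4 (log2 1.45 ± 0.07, adjusted p = 2.02e-09). In chondroblasts, whose libraries all lay below those of the other populations, it was 1.86-fold lower than the others (log2 -0.90 ± 0.08, adjusted p = 7.74e-07), short of the fold limit.

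Among the PEA3-group factors, Etv4 (chr11:101769747-101785310) followed an order of its own. It was at 143.2, 146.0 and 157.4 CPM in S9-JAG1+ LMPs, 93.0 and 96.3 CPM in S9-SCA-1+ cells, 71.5, 69.8 and 92.5 CPM in S9-Pαhi LMPs, 34.0, 32.9 and 21.0 CPM in chondroblasts, and 24.6, 19.9 and 20.7 CPM in OCPs. The Sox9-negative populations all lay above the Sox9-positive ones, with no overlap, while chondroblasts and OCPs overlapped. Etv4 rose 3.20-fold in S9-JAG1+ LMPs (log2 1.68 ± 0.11, adjusted p = 6.14e-08) and fell 3.46-fold in OCPs (log2 -1.79 ± 0.14, adjusted p = 1.05e-06) and 2.38-fold in chondroblasts (log2 -1.25 ± 0.14, adjusted p = 3.63e-06), each against the other 4. The chondroblast call was lost without replicate 3 of the chondroblasts (log2 -1.10) and without the S9-SCA-1+ cells in the fit (log2 -1.12). In S9-SCA-1+ cells, where Spry1, Spry4 and Dusp6 were low, Etv4 was 1.81-fold above the other 4 (log2 0.86 ± 0.14, adjusted p = 1.94e-04), short of the fold limit.

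Etv5 (chr16:22381313-22439570) had a similar order at smaller size. Its libraries were at 150.6, 139.6 and 154.1 CPM in S9-JAG1+ LMPs, 102.6 and 95.9 CPM in S9-SCA-1+ cells, 82.6, 87.3 and 121.4 CPM in S9-Pαhi LMPs, 69.8, 77.1 and 73.0 CPM in chondroblasts, and 53.6, 45.8 and 62.4 CPM in OCPs. S9-JAG1+ libraries lay above and OCP libraries below all others, and neither difference from the mean of the other 4 reached the fold limit (log2 0.91 ± 0.10, adjusted p = 7.72e-06, and -0.91 ± 0.11, adjusted p = 6.89e-05). Between S9-JAG1+ LMPs and OCPs directly, Etv5 was 2.74-fold higher in the LMPs (log2 1.46 ± 0.14). Etv1 (chr12:38780082-38870483) was low throughout, at 83 to 293 counts a library. It was highest in chondroblasts (9.22 ± 1.16 CPM, SD, n = 3) and S9-Pαhi LMPs (8.36 ± 1.12 CPM, n = 3), which did not differ beyond their spread (adjusted p = 0.480), and lowest in OCPs (4.16 ± 0.41 CPM, n = 3). Etv1 was the only member with a lower level in S9-JAG1+ LMPs than in the mean of the other 4, at log2 -0.35 ± 0.13 (adjusted p = 0.0455), short of the fold limit and with overlapping libraries.

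Between both LMP populations of the same stage, S9-JAG1+ against S9-Pαhi, the 3 sprouty genes were called higher and no member lower, where 2.58% of all genes were called higher and 4.42% lower. Spry4 was 3.53-fold higher (log2 1.82 ± 0.18, adjusted p = 7.67e-06), Spry1 2.41-fold (log2 1.27 ± 0.16, adjusted p = 5.52e-05), and Spry2 as given above. Dusp6 just missed the fold limit at 2.29-fold (log2 1.19 ± 0.16, adjusted p = 1.01e-04), while Il17rd stood at 1.84-fold, Etv4 at 1.91-fold and Etv5 at 1.53-fold. On the adjusted p alone all 10 genes passed, 9 higher in S9-JAG1+ LMPs and Etv1 lower, beside 28.1% of all genes. Replicate 3 of the S9-Pαhi LMPs lay nearest to the S9-JAG1+ libraries for 7 of these genes (Spry1, Spry4, Dusp6, Il17rd, Etv1, Etv4 and Etv5), and without it Dusp6 was called as well (log2 1.46). Its posterior-distal mesenchyme markers summed to 1003 CPM against 950.3 and 832.8 CPM in the other S9-Pαhi libraries and 2144 to 2884 CPM in S9-JAG1+ LMPs, and its Jag1 level of 11.7 CPM lay between theirs. Without replicate 2 of the S9-Pαhi LMPs, or without replicate 3 of the S9-JAG1+ LMPs, Spry4 alone was called, since Spry1 and Spry2 then lay just under the limit (log2 1.10 and 1.12, or 1.19 and 1.17).

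From S9-Pαhi LMPs to OCPs, Spry4 and Etv4 fell and none rose, where 3.48% of all genes were called higher and 1.36% lower. Spry4 was 2.99-fold lower in OCPs (adjusted p = 9.60e-05) and Etv4 3.58-fold lower (adjusted p = 8.53e-06). Etv1 was 2.01-fold, Etv5 1.80-fold, Il17rd 1.61-fold and Spry1 1.56-fold lower in OCPs, all with an adjusted p of at most 0.1 and short of the fold limit. Spry2 went the other way, 1.48-fold higher in OCPs (adjusted p = 0.0176). Dusp6, Spred1 and Spred2 had an adjusted p of 0.187 or more, with overlapping libraries, so that 7 members passed on the adjusted p alone, beside 20.1% of all genes.

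Between OCPs of E10.5 and chondroblasts of E11.5 no member was called in either direction, where 6.6% of all genes were called higher in chondroblasts and 1.16% lower. On the adjusted p alone 7 of the 10 passed, as did 34.8% of all genes. In chondroblasts Etv1 was 2.22-fold higher, Spry4 2.08-fold, Spry2 1.55-fold, Etv5 1.36-fold and Etv4 1.35-fold, whereas Il17rd was 1.24-fold and Spred2 1.21-fold lower. Without replicate 3 of the OCPs, or without replicate 3 of the chondroblasts, Etv1 was called as well (log2 1.22 in each case). Dusp6 was 1.08-fold higher in OCPs (95% interval of the log2 difference, OCPs minus chondroblasts, -0.23 to 0.45), Spry1 1.07-fold and Spred1 1.01-fold, and their libraries overlapped.

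S9-SCA-1+ cells against S9-JAG1+ LMPs differed in Spry1, Spry4, Dusp6 and Il17rd, called lower, with none higher, where 4.91% of all genes were called lower and 6.53% higher in SCA-1+ cells. The genes were 11.9-fold (Spry1), 8.84-fold (Spry4), 4.82-fold (Dusp6) and 2.81-fold (Il17rd) higher in S9-JAG1+ LMPs. Etv4 and Etv5 were 1.57-fold and 1.49-fold higher there, and Etv1, with an adjusted p of 0.454, was the 1 member that did not pass on the adjusted p alone, which 31.2% of all genes did. The SCA-1+ library with the high red blood cell genes did not stand apart in the members, whose summed level was 754.9 CPM in it and 808.1 CPM in the other.

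The make-up of each family also differed between populations. Of the summed RPKM of the 3 sprouty genes, Spry2 took 36.0% ± 2.92 (SD, n = 3) in S9-JAG1+ LMPs and 39.9% ± 5.00 in S9-Pαhi LMPs, but 63.7% ± 1.54 in OCPs, 70.3% ± 0.312 in chondroblasts and 73.8% ± 0.516 (n = 2) in S9-SCA-1+ cells. The highest LMP library was at 44.3% and the lowest library of the other populations at 62.4%, so that both LMP populations stood apart from the rest. Spry4 took 24.8% ± 1.88 in S9-JAG1+ LMPs and 6.77% ± 1.21 in OCPs. In the PEA3 group the share of Etv4 was 61.5% ± 1.09 in S9-JAG1+ LMPs, 55.0% ± 1.29 in S9-Pαhi LMPs and 59.7% ± 1.52 (n = 2) in S9-SCA-1+ cells, against 38.3% ± 4.01 in OCPs and 36.7% ± 5.91 in chondroblasts, where Etv5 took the larger part. Etv1 never exceeded 6.57% of the group in any library. Spred1 made up 43.6% to 58.4% of the summed RPKM of both Spred genes, by population mean. These shares follow from the levels above and were given no test.

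**Figure D3:**
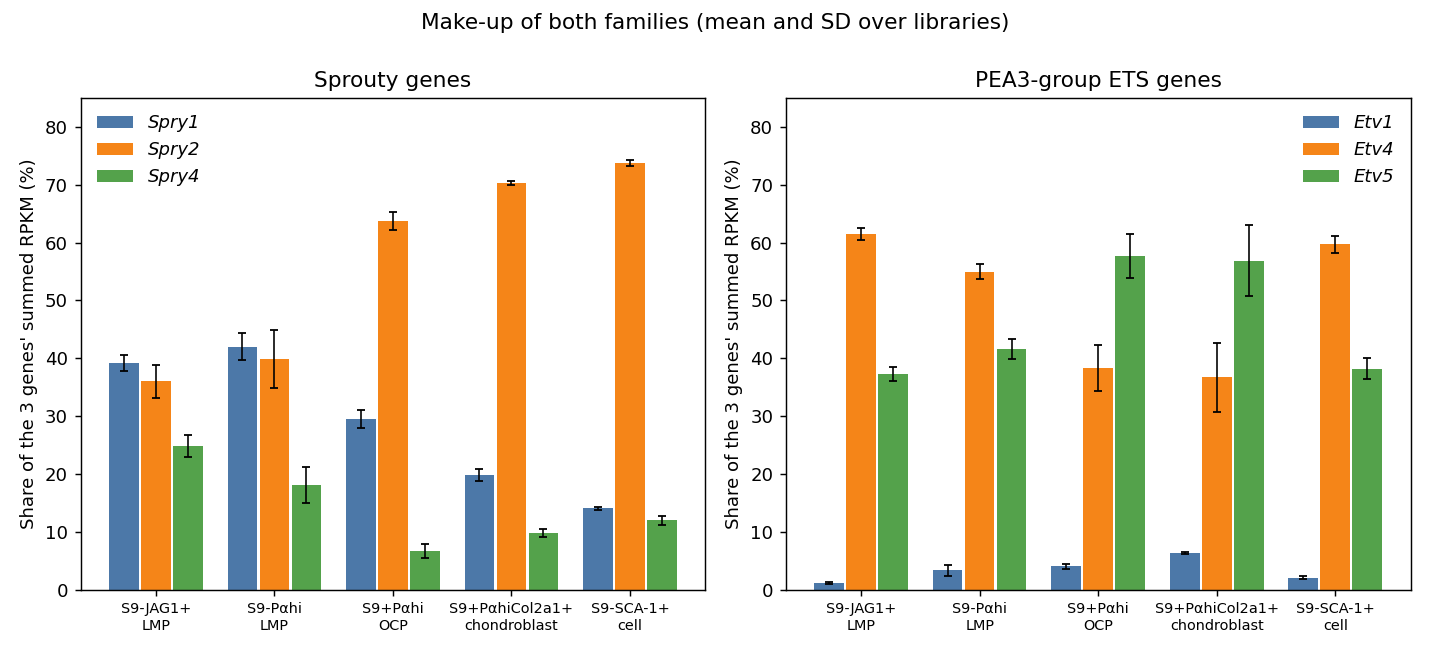
Share of each gene in the summed RPKM of the 3 sprouty genes (left) and the 3 PEA3-group genes (right), in percent, by population; bars are means over 3 libraries (2 for S9-SCA-1+ cells) and error bars are SD. Spry2 is the largest sprouty share in OCPs, chondroblasts and SCA-1+ cells, and Etv5 passes Etv4 in OCPs and chondroblasts.

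The rest of the pathway was read from lists of its parts, each population again set against the other 4. Of 22 genes named Fgf, taken without regard to whether each encodes a secreted ligand, 12 were tested. In S9-JAG1+ LMPs 3 were called higher and 3 lower (median log2 fold change -0.61), beside 2.88% and 7.7% of all genes. In chondroblasts 8 were called higher and 1 lower (median 1.57), beside 11% and 1.71% of all genes. Those with the largest changes were Fgf5, Fgf9, Fgf8 and Fgf1, none of which exceeded 12.4 CPM in any library. Fgf8, the main ligand of the apical ectodermal ridge, was at 0.126 to 0.872 CPM in S9-JAG1+ LMPs and at 1.22 to 3.80 CPM in chondroblasts. Ridge and ectoderm markers as a whole summed to 11.8 to 25.8 CPM in S9-JAG1+ LMPs (highest in replicate 1). They summed to 33.9 to 41.0 CPM in chondroblasts and 9.37 to 19.6 CPM in the others. Of the 8 markers tested, 1 was called higher and 1 lower in S9-JAG1+ LMPs. Fgf10, the ligand made by the mesenchyme itself, was added after its values were seen. It was at 92.0, 92.6 and 103.2 CPM in S9-JAG1+ LMPs, between 36.9 and 60.4 CPM in S9-Pαhi LMPs, OCPs and chondroblasts, and at 13.9 and 13.8 CPM in S9-SCA-1+ cells, and was called higher in S9-JAG1+ LMPs (log2 1.47 ± 0.10, adjusted p = 5.93e-08).

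Most receptor genes were lower, not higher, in S9-JAG1+ LMPs, and S9-SCA-1+ cells had a similar median. Of the 9 receptor and coreceptor genes tested, none rose and 4 fell in S9-JAG1+ LMPs (Fgfr2, Fgfr3, Fgfr4 and Flrt2). The list median was -0.87 there, and 7.7% of all genes were called lower. In S9-SCA-1+ cells Fgfr2 and Fgfr3 fell and Fgfr4 rose (median -0.86), beside 6.8% of all genes called lower and 4.46% higher. In chondroblasts 5 rose (median 1.70), beside 11% of all genes called higher. Fgfr3 was at 4.78 to 5.78 CPM in S9-JAG1+ LMPs and 49.1 to 73.1 CPM in chondroblasts, and Flrt2, a membrane partner of FGF receptors, at 26.2 to 34.7 CPM and 187.8 to 229.2 CPM. Fgfr4 was highest in S9-SCA-1+ cells at 11.2 and 12.6 CPM, and Kl never passed 0.616 CPM. Fgfr1, per kilobase the most abundant receptor gene, was named after its values were seen and varied less, from 374.4 to 388.0 CPM in S9-JAG1+ LMPs, 419.2 to 495.6 CPM in S9-Pαhi LMPs, 523.1 to 650.0 CPM over OCPs and chondroblasts, and 239.3 to 266.7 CPM in S9-SCA-1+ cells. Of 27 genes for adaptors, RAS, RAF, MEK and ERK, none was called in any population, and their medians lay between -0.09 and 0.14.

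Of the 12 other sprouty, Spred and dual-specificity phosphatase genes tested, none rose and 2 fell in S9-JAG1+ LMPs (median -0.19). Of all genes, 2.88% were called higher and 7.7% lower there. In chondroblasts 3 fell (Dusp2, Dusp4 and Dusp9), beside 1.71% of all genes, and in S9-SCA-1+ cells 3 rose, beside 4.46%. Dusp4, a nuclear phosphatase of ERK, was at 65.5 to 77.2 CPM in S9-JAG1+ LMPs, 37.5 to 42.5 CPM in S9-Pαhi LMPs, 36.5 to 38.9 CPM in OCPs and 15.6 to 26.0 CPM in chondroblasts, an order like that of the members, but at 228.0 and 171.1 CPM in S9-SCA-1+ cells, where Dusp6 was lowest. The summed level of the list likewise ran from 645.7 to 676.5 CPM in S9-JAG1+ LMPs down to 368.9 to 396.8 CPM in chondroblasts, and was 771.0 and 720.9 CPM in S9-SCA-1+ cells. Dusp9 was at 266.0 to 296.2 CPM in S9-JAG1+ LMPs, at 303.9 and 306.7 CPM in SCA-1+ cells and at 73.4 to 93.7 CPM in chondroblasts. Dusp2 and Dusp8, also named by the rule, stayed at or under 3.67 CPM. Of 16 other ETS genes with the repressor Cic, 2 rose (Ets2 and Etv2) and 2 fell (Fli1 and Erg) in S9-JAG1+ LMPs. The shares over all genes were again 2.88% higher and 7.7% lower. Ets2 had a pattern close to that of the members, at 471.8 to 529.1 CPM in S9-JAG1+ LMPs, 202.9 to 287.6 CPM over the next 3 populations and 46.0 and 48.5 CPM in S9-SCA-1+ cells (log2 1.62 ± 0.08 in S9-JAG1+ LMPs, adjusted p = 1.84e-09).

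Immediate early genes, which ERK also switches on within minutes, were not high where the members were high. Of 16 tested, none rose in S9-JAG1+ LMPs and 4 fell (Fos, Egr1, Egr2 and Myc), beside a list median of 0.03. Of all genes, 2.88% were called higher and 7.7% lower in S9-JAG1+ LMPs. Egr1 was at 16.2, 24.8 and 17.4 CPM in S9-JAG1+ LMPs, 142.2, 56.4 and 29.5 CPM in S9-Pαhi LMPs, 43.0, 190.2 and 141.3 CPM in OCPs, 261.2, 158.5 and 132.3 CPM in chondroblasts, and 52.5 and 129.9 CPM in S9-SCA-1+ cells. Every S9-JAG1+ library lay below every other library, although replicates of the other populations differed up to several-fold. Against the other 4 it was called lower in S9-JAG1+ LMPs (log2 -2.53 ± 0.53, adjusted p = 0.00168) and higher in chondroblasts (log2 1.52 ± 0.41, adjusted p = 0.00529). Fos was at 26.2 to 56.6 CPM in S9-JAG1+ LMPs and 132.4 to 236.8 CPM in chondroblasts, and Egr2 did not exceed 9.28 CPM. Myc was at 9.35 to 13.2 CPM in S9-JAG1+ LMPs and at 144.5 and 157.1 CPM in S9-SCA-1+ cells. Cells were kept warm in enzyme before sorting, a step known to induce such genes. Heat shock and dissociation stress genes summed to 1597 to 1724 CPM in S9-JAG1+ LMPs, 1204 to 1421 CPM in S9-Pαhi LMPs, 1057 to 1199 CPM in OCPs, 693.4 to 837.1 CPM in chondroblasts and 1535 to 1863 CPM in S9-SCA-1+ cells, and their part in these results was not tested.

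**Figure D4:**
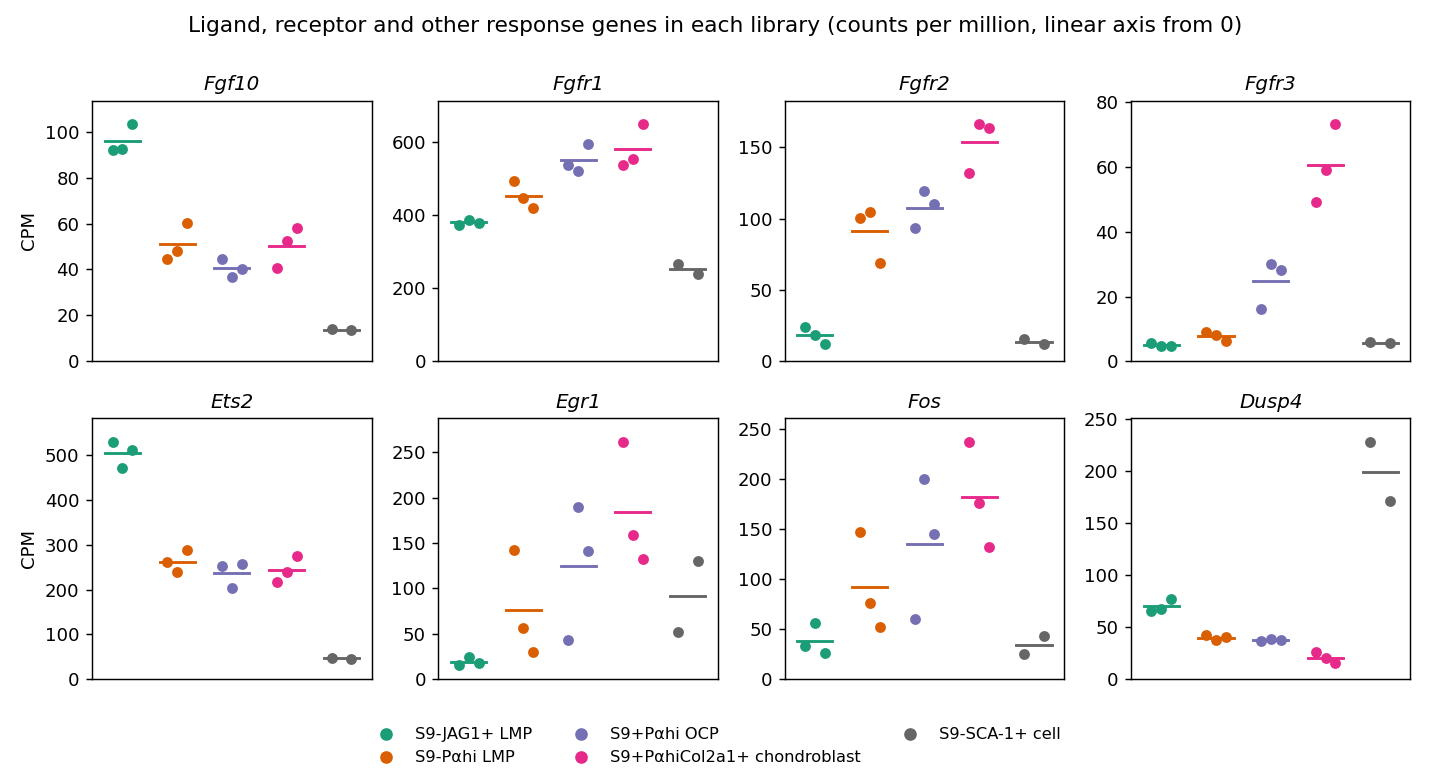
Level of 8 other genes of the pathway in each library, in CPM on a linear axis from 0; points are libraries and lines are means. Fgf10 and Ets2 are highest in S9-JAG1+ LMPs, whereas Fgfr2, Fgfr3, Egr1 and Fos are at their highest mean in chondroblasts and Dusp4 in S9-SCA-1+ cells.

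Likeness of profiles was described by Pearson's r of log2 CPM over the 14 libraries, which share the same 5 populations, so r reflects differences between populations and carries no p. Among the members, Spry1 and Dusp6 were most alike (r = 0.96), followed by Spred2 and Il17rd (r = 0.95) and by Etv4 and Etv5 (r = 0.93). Spry2 was most like Dusp6 (r = 0.53), and Etv1 was at most at r = 0.09 with any other member. Of 10089 other genes, those nearest to the mean profile of the members were Slc35f2, Cbfa2t3 and Eogt (r = 0.97 each). For 8 single members the nearest genes were Daam2, Chn1 and Sall3 for Spry1 (r = 0.96 to 0.98), Eps8, Jag1 and Tspan18 for Spry2 (0.90 to 0.92), Cbfa2t3, Gja3 and Slc35f2 for Spry4 (0.97), Wipi1, Ets2 and Vcam1 for Spred1 (0.97 to 0.98), and Klhl25, Tlnrd1 and Nxn for Spred2 (0.96). They were Gldc, Slc4a4 and Tlnrd1 for Il17rd (0.97 to 0.98), Slc7a5, Asns and Col4a2 for Etv4 (0.96), and Pcca, Mapre2 and Sowahc for Etv5 (0.93 to 0.94). Jag1, second of the 3 nearest to Spry2, encodes the protein used to sort S9-JAG1+ LMPs.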

How the data were processed

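RNA-seq of 14 libraries was analysed from the raw counts per gene that the authors deposited. The study's methods describe single reads of poly(A) RNA, mapped with STAR to mm10 with 1 reported hit per read, and reads starting in RefSeq exons were counted with QuasR. Whether the counting used strand is not given in the sources used here, and paralogs with near-identical sequence could share reads. Genes were named from their Entrez IDs (24374 of 24454 matched, and the 80 others held 0.358% of counts). All named genes, members included, and their lists were chosen with earlier results of these data known.

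Genes with low counts were removed with filterByExpr (15125 of 24454 tested), libraries were scaled by TMM (factors 0.957 to 1.06), and all 14 libraries were fitted in 1 model with edgeR 4.0.16 (R 4.3.3), using its quasi-likelihood test with Benjamini-Hochberg adjustment over all genes tested. The common biological coefficient of variation was 13.4%. Calls needed an adjusted p no higher than 0.1 together with a log2 fold change of 1.2 or more in size. The study states the same values for its P and fold limits without saying that its P was adjusted. Group means are arithmetic means of CPM, while fold changes come from the model. The "mean of the other 4" is the mean of their log2 levels. RPKM was CPM per kilobase of the deposited gene length. A floor of 3 counts equals 0.101 to 0.149 CPM. Of pathway genes, those named are up to 4 per list with the largest change among genes called in S9-JAG1+ LMPs or chondroblasts. Beyond that rule stand Fgf10, Fgfr1 and Fgfr2, the genes of the sort gates, and those named for a count of 5 or fewer. For profile likeness the 3 nearest genes with an average log2 CPM of at least 3 are named (prior count 2), and those of Dusp6 and Etv1 are not reported here. On simulated data, 88 of 100 genes changed by a log2 of 1.5 were recovered when 1 population was set against the other 4, with 1 false call among 14759 genes. Libraries are pools of embryos, and whether replicates were sorted on separate days is not given in the sources used here, so p-values cover the spread between libraries only. Alternatives were other scalings and filters, DESeq2 1.42.0, no fold limit, a replicate block, fits without the chondroblasts or the SCA-1+ cells, and leaving out each library. Promoters are from RefSeq (GRCm38.p6).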

Additional observations from a re-analysis of the deposited data

How the results depend on the processing

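Over 26 alternative settings the 90 fold changes of the members gave 2220 values. Of these, 2139 kept their direction and stayed called or uncalled, 56 gained a call, 10 lost one and 15 changed direction. None of the 20 called fold changes changed direction. Dropping the fold limit moved the most counts, to 10 members in S9-JAG1+ LMPs, 6 in S9-Pαhi LMPs, 5 in OCPs, 8 in chondroblasts and 8 in S9-SCA-1+ cells, each against the other 4, and to 10 between both LMP populations, 7 from S9-Pαhi LMPs to OCPs, 7 from OCPs to chondroblasts and 9 from S9-JAG1+ LMPs to S9-SCA-1+ cells, beside 15.6% to 65% of all genes. Scaling by library totals left 0 members called in chondroblasts (Etv4 at -1.15) and 1 from OCPs to chondroblasts (Etv1 at 1.22), and leaving out the S9-SCA-1+ cells also left 0 in chondroblasts (Etv4 at -1.12). With single libraries left out, counts ranged from 0 to 1 for chondroblasts, from 0 to 1 from OCPs to chondroblasts, from 1 to 4 between both LMP populations and from 1 to 3 for S9-SCA-1+ cells (lowest without replicate 3 of the S9-Pαhi LMPs). The other counts stayed within 1.5 times under these settings. The cause of these moves was not tested.

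Values that changed direction were small and uncalled. With library totals Spred1 went to 0.05 in chondroblasts against OCPs. Without the S9-SCA-1+ cells Spred1 went to -0.02 in S9-Pαhi LMPs, -0.13 in OCPs and -0.16 in chondroblasts, and Dusp6 to -0.23 in S9-Pαhi LMPs. Without the chondroblasts Spry2 went to 0.09 in OCPs and Etv1 to 0.08 in S9-SCA-1+ cells. With 1 library left out, values ranged from -0.19 to 0.02 for Spry2 in OCPs, from -0.01 to 0.07 for Spred1 in chondroblasts and -0.07 to 0.03 against OCPs, and from -0.23 to 0.04 for Etv1 in S9-SCA-1+ cells. They ranged from -0.18 to 0.25 for Dusp6 and -0.04 to 0.26 for Etv5 in S9-Pαhi LMPs, and from -0.34 to 0.09 for Dusp6 in OCPs against these LMPs, where each change of direction came without replicate 3 of the S9-Pαhi LMPs.

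Whether libraries of the same replicate number shared a pool of embryos is not given in the sources used here. With 2 or 3 libraries a population, the check below cannot decide it, and its pairs include the chondroblasts, which came from other embryos. Over 26 same-numbered pairs of different populations, deviations from the group means correlated at -0.18 to 0.31 (median -0.00, 4 pairs over 0.1), and 5 of 14 libraries matched best with one of their own number. With a replicate block, Dusp6 was also called between both LMP populations (adjusted p = 2.02e-04), giving 4 members there against 3, and no other call changed. Etv1, with 83 to 293 counts a library, had the lowest average level of the members.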
